A study of Mus musculus with 12 samples.

Results

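The genes described are 38 of the 24537 in the deposited table. They are enzymes and transporters of glycolysis together with genes of the cell's oxygen sensing pathway and genes known to be induced by low oxygen, picked by symbol from a list, and all 38 were found. The RNA came from 12 mouse cell cultures in 4 groups with 3 libraries apiece. The ADSCs were Pdgfra-positive cells cultured from subcutaneous fat in medium with fetal bovine serum. In vitro iSEPs, induced stratified epithelial progenitor cells, are epithelial cells obtained from such ADSCs in a dish. In vivo iSEPs were cultured from epithelial tissue that formed out of mesenchyme inside the animal, and keratinocytes were cultured from back skin. These 3 groups were grown in keratinocyte medium lacking serum, so that cell type and medium cannot be told apart in any comparison with ADSCs. All 12 carry the Pdgfra-creERxLSL-tdTomato alleles, in which a tamoxifen-dependent Cre under Pdgfra control switches on a red reporter. The library titles number the mice from 1 to 3, with 1 library of each number in every group. They read as if a number were the same animal in each group, which was not established here. Neither the age of the mice nor the oxygen level of the cultures is given in the sources used here.

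Glycolysis breaks glucose down to pyruvate in the cytosol, and lactate dehydrogenase turns pyruvate into lactate when it is not passed to mitochondria. The hypoxia-inducible factors are transcription factors whose alpha subunits are marked for destruction by prolyl hydroxylases as long as oxygen is present. When oxygen falls the subunits persist and bind short promoter and enhancer sequences of genes for glycolysis, blood vessel growth, collagen hydroxylation and mitochondrial removal. Epidermal keratinocytes are known for heavy use of glucose and for high levels of the glucose transporter encoded by Slc2a1.

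Values are FPKM, which are fragments per kilobase of transcript scaled to library depth, and are given as mean ± SD with n = 3. Differences are on the log2(FPKM + 1) scale and are called at a Benjamini-Hochberg adjusted p below 0.05 from limma, fitted over the 12364 genes that reached 1 FPKM in 3 or more libraries. Of the 38 members 37 passed that filter. Eno2 passed it through the 3 ADSC libraries alone and Car9 through the 3 keratinocyte libraries alone, so a call of either against that group was favoured by the filter. The low FPKM steps put 21010000 to 27770000 reads in listed genes of each library. Keratinocyte markers (Krt5, Krt14, Trp63, Cdh1, Epcam and Itga6) summed to 9487 to 22398 FPKM in the 3 epithelial groups and 11.5 to 12.8 in ADSCs, and stromal markers (Pdgfra, Vim, Postn and 3 collagen genes) to 8252 to 10446 in ADSCs and 26.2 to 294 elsewhere. Among in vivo iSEPs, mouse 3 stood apart, with 103 FPKM of Krt8 against 0.159 and 0.166 in the other libraries of that group. It had 3410 FPKM of Krt5 against 9804 and 9252, and Krt14 was lowest there too (5621 against 9607 and 6968). Other keratinocyte markers were highest there, namely Epcam (116 against 16.6 and 6.87) and Cdh1 (160 against 82.6 and 151). Trp63 and Itga6 lay between the values of mice 1 and 2. The stromal markers of mouse 3 summed to 173 FPKM, of which Vim was 148. Of the immune markers, Lyz2 was at 50.5 FPKM in the ADSCs of mouse 2. In these bulk cultures fewer cells of a type and less RNA per cell cannot be told apart.

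**Figure D1:**
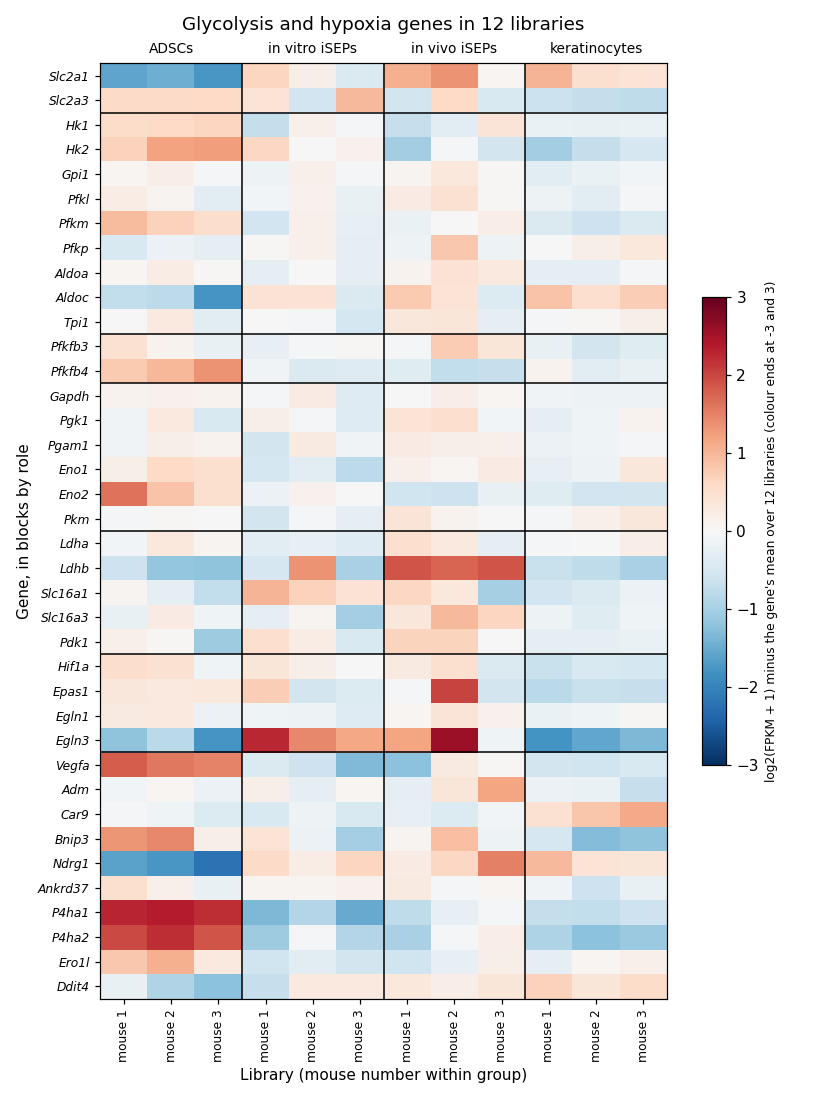
Level of each of the 38 members in each of the 12 libraries, as log2(FPKM + 1) minus the gene's own mean over the libraries (red above, blue below), with genes in blocks by role and libraries in blocks by group. P4ha1, P4ha2 and Vegfa are above their mean in all 3 ADSC libraries, Slc2a1 and Ndrg1 are below it there, and Ldhb is above its mean in all 3 in vivo iSEP libraries.

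Gapdh, Pgk1, Pgam1 and Eno1 need care before any level is read. Gapdh, the glyceraldehyde phosphate dehydrogenase often taken as a housekeeping gene, was listed at 0.032 to 0.607 FPKM in the 12 libraries, while Aldoa one step upstream was at 415 to 683 and Pkm downstream at 317 to 607. It is the member that did not pass the filter, and its listed value is not read here as its expression. Pgk1 (7.72 to 15.9 FPKM) and Pgam1 (9.84 to 18.3), which follow it in the pathway, were also listed far below Aldoa and Pkm. Whether their listed values leave reads out was not tested. Eno1 (enolase 1) stands beside Eno1b, a near-identical copy named after these values were seen. The ratio of Eno1 to Eno1b was 0.936 to 0.95 in all 12 libraries, so that reads of this pair cannot be told apart and every Eno1 value is uncertain. Slc2a3 (2 reads at the lowest) and Car9 (3 reads at the lowest) rest on few reads in some libraries.

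In vivo iSEPs were set against in vitro iSEPs to ask how cells converted inside the animal differ from cells converted in a dish. A single member of 37, P4ha1, was called, and it was higher in in vivo iSEPs. Over all tested genes 1.63% were called in this comparison, 0.679% higher and 0.946% lower, and of the members 2.7%, so the share is near the background. The median difference of the members was 0.32 against -0.029 over all tested genes. It was positive in 29 of 37 members, and in 44.7% of all tested genes. In the alternatives run the members' median lay between 0.216 and 0.386, reached when the in vitro library of mouse 3 or of mouse 2 was left out. Between single libraries, the median member stood 0.122, 0.504 and 0.117 above the in vitro mean in in vivo iSEPs of mice 1, 2 and 3. In vitro libraries themselves stood at 0.06, 0.142 and -0.16 from that mean, so the in vivo libraries of mice 1 and 3 lay below the highest in vitro library.

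P4ha1 encodes an alpha subunit of the prolyl 4-hydroxylase that modifies collagen, an enzyme that itself needs oxygen. It lies on mm10 chromosome 10 from 59323296 to 59373304. Its FPKM in in vivo iSEPs was 13.0, 19.1 and 22.1 for mice 1, 2 and 3, and in in vitro iSEPs 8.43, 12.01 and 7.33. All 3 in vivo values were above all 3 in vitro values. The mean was 18.1 ± 4.62 against 9.26 ± 2.45, a log2 difference of 0.89 (SE 0.19, limma adjusted p = 0.0473). The call was lost in 12 of 16 alternatives, with adjusted p up to 0.387 when only the 6 iSEP libraries were fitted. With the mouse number as a block it had adjusted p = 0.0658. Among single libraries it was lost without the in vivo iSEPs of mouse 2 (adjusted p = 0.148) or mouse 3 (0.0776). Leaving out the in vitro iSEPs of mouse 1 (0.104) or mouse 3 (0.186) also ended it. The stromal markers moved the opposite way, with 4 of 6 lower in in vivo iSEPs. Their summed level was 29.3 to 173 FPKM in in vivo and 87.6 to 294 in in vitro iSEPs. Much of that sum was Vim, at 26.5 to 148 and 42.2 to 147 FPKM. The other 5 markers did not overlap, each being lower in all in vivo libraries. The part of these markers in the result was not tested.

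Ldhb had the widest difference of the members and missed the threshold. It encodes the heart-type subunit of lactate dehydrogenase, and lies on chromosome 6 from 142490249 to 142507957. In vivo iSEPs had 69.3, 62.8 and 69.8 FPKM. In vitro iSEPs had 12.3, 47.1 and 8.74, so that the library of mouse 2 stood nearer to the in vivo cultures than to the others of its own group. No value overlapped between the groups. The means were 67.3 ± 3.9 and 22.7 ± 21.2 FPKM (log2 difference 1.89, 95% interval 0.89 to 2.89, limma adjusted p = 0.0704). Without the in vitro iSEPs of mouse 2 the log2 difference was 2.58 (adjusted p = 0.000494). Those cells also had more Krt8 (7.17 FPKM) than the in vitro iSEPs of mouse 1 (0.934) and mouse 3 (0.562). Krt8 was at 0.159, 0.166 and 103 FPKM in in vivo iSEPs and at 33.6, 21.9 and 27.9 in keratinocytes. Whether Krt8 bears on Ldhb was not tested.

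The lactate exporter gene Slc16a3 (MCT4, chromosome 11, 120949067 to 120959000) was at 89.5, 139 and 111 FPKM in in vivo iSEPs and at 57.4, 74.9 and 34.1 in in vitro iSEPs. The groups did not overlap, with means of 113 ± 25.0 and 55.5 ± 20.5 (log2 difference 1.07, 95% interval 0.50 to 1.63, adjusted p = 0.0711, limma). It passed the threshold without the in vivo iSEPs of mouse 1 (adjusted p = 0.048), and when the in vitro cells of mouse 2 were left out (0.025). Slc16a1, which encodes the related transporter MCT1, had 24.4, 19.5 and 7.24 FPKM in in vivo and 32.6, 25.5 and 21.1 in in vitro iSEPs. Its difference had the opposite sign (log2 -0.73, 95% interval -1.54 to 0.08, adjusted p = 0.389), and its groups overlapped.

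Eno1, with the reservation above, was at 102, 95.2 and 108 FPKM in in vivo and at 62.3, 71.4 and 52.6 in in vitro iSEPs, without overlap (log2 difference 0.71, 95% interval 0.33 to 1.09, limma adjusted p = 0.074). Quantile normalization brought it past the threshold (adjusted p = 0.0447). Hk2, a hexokinase that starts glycolysis by phosphorylating glucose, ran the other way at 3.85, 8.47 and 5.82 against 14.3, 8.84 and 9.86 FPKM (log2 -0.79, 95% interval -1.38 to -0.21, adjusted p = 0.18). Its groups did not overlap either, although the 2 libraries of mouse 2 were close. Slc2a1 (GLUT1, the main glucose importer of these cells) had 414, 508 and 207 FPKM against 312, 222 and 145, with overlapping groups (log2 0.70, 95% interval -0.05 to 1.46, adjusted p = 0.374). Epas1, the gene of HIF-2 alpha, had 1.49, 9.46 and 0.764 FPKM against 3.29, 0.745 and 0.937 (log2 0.55, adjusted p = 0.709), and the in vivo mean rested on mouse 2.

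Across the 37 members 9 had groups that did not overlap, against 15% of all tested genes. These were the 5 given so far (P4ha1, Ldhb, Slc16a3, Eno1 and Hk2) and also Aldoa, Pkm, Egln1 and Eno2. Aldoa (aldolase A) was at 613 ± 71.1 FPKM against 449 ± 53.4, Pkm (pyruvate kinase) at 524 ± 73.8 against 380 ± 65.7 and Egln1 (the oxygen-sensing hydroxylase PHD2) at 26.7 ± 3.16 against 19.8 ± 1.94. Their adjusted p values were 0.175, 0.215 and 0.203. Eno2, a neuronal-type enolase, was lower in value at 0.169 ± 0.186 against 0.608 ± 0.167 (adjusted p = 0.428). At an unadjusted p below 0.05 stood 9 of 37 members, where 14.9% of all tested genes did. Hif1a, the gene of the main oxygen-regulated factor, had 170 ± 52.2 and 174 ± 22.2 FPKM (log2 -0.08, adjusted p = 0.931).

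**Figure D2:**
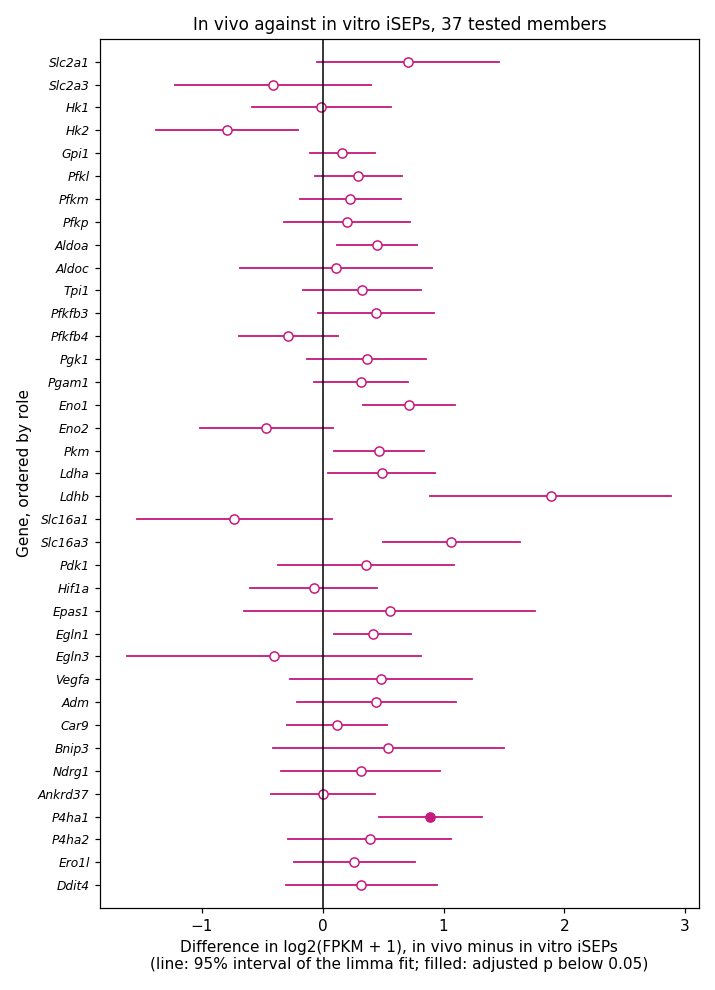
Difference in log2(FPKM + 1) between in vivo and in vitro iSEPs for the 37 tested members (point: difference, line: 95% interval of the limma fit, filled point: adjusted p below 0.05). P4ha1 at 0.89 is the filled point, Ldhb at 1.89 and Slc16a3 at 1.07 lie furthest right, and Hk2 at -0.79 and Slc16a1 at -0.73 furthest left.

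The 3 in vivo iSEP cultures were uneven in different members. Mouse 2 was highest of the 3 in 16 of the 33 members with a group mean of at least 1 FPKM, among them Slc2a1, Epas1 and Egln3, while mouse 3 was highest in 10 and lowest in 16. In mouse 3 Slc2a1, Slc16a1 and Egln3 were lowest of the group, while Ndrg1 (158 FPKM against 65.0 and 84.3) and Adm (107 against 38.2 and 59.7) were highest. The median SD of a member on the log2 scale was 0.388 in in vivo iSEPs, 0.298 in in vitro iSEPs, 0.257 in ADSCs and 0.155 in keratinocytes, and over all tested genes it was 0.253, 0.197, 0.162 and 0.117 in the same order. The fit pools these unequal spreads.

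Promoter sequence is shown for the 5 members on which these comparisons turn, because hypoxia-inducible factors are known to bind a core of ACGTG or GCGTG. Each window runs from 250 bases before to 50 after the RefSeq start (GRCm38.p6, the assembly behind mm10), written 5′ to 3′ on the gene's own strand. Capitals mark ACGTG and GCGTG on either strand, which appear as CACGT and CACGC where they lie on the opposite strand.
P4ha1, chr10:59323046-59323345, plus strand: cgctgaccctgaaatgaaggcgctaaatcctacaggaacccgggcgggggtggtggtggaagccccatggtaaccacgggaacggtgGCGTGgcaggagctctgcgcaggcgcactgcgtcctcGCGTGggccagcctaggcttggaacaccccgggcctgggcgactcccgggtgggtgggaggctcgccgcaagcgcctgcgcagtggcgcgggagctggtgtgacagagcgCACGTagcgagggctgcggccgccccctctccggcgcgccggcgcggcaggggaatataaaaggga
Ldhb, chr6:142507908-142508207, minus strand: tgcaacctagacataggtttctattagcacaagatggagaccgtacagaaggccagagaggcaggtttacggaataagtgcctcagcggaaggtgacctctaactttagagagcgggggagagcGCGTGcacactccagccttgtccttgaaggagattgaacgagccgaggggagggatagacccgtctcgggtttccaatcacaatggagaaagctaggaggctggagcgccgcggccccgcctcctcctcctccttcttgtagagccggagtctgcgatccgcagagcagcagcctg
Slc16a3, chr11:120948817-120949116, plus strand: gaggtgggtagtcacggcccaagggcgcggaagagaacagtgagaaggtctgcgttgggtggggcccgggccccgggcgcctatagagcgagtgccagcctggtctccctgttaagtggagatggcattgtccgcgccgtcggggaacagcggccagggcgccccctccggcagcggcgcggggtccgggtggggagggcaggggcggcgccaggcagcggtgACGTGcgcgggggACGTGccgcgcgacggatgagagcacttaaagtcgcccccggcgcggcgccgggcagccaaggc
Egln3, chr12:54203825-54204124, minus strand: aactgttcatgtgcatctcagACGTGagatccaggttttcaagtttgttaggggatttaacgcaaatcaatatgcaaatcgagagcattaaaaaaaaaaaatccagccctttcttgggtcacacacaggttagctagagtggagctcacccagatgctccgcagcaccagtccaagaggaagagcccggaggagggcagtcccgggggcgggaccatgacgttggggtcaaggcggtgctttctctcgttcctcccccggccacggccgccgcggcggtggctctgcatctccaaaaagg
Slc2a1, chr4:119108495-119108794, plus strand: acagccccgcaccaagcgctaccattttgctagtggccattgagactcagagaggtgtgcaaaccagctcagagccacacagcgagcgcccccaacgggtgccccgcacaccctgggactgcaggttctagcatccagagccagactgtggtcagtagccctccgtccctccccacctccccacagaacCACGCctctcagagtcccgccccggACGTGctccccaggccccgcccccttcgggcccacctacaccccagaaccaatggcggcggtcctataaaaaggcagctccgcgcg

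The P4ha1 window held 3 such matches, Slc16a3 and Slc2a1 held 2 each, and Ldhb and Egln3 held 1 each. In Slc16a3 both lay within 27 bases upstream of the start, at positions -27 and -14, whereas the match in Egln3 began at -229. Windows were matched for 35 of the 38 members. No window was printed or searched for Slc2a3, Epas1 and Ndrg1. At least 1 match was present in 28 of the 35, or 80%, against 62% of the windows of tested genes and 43.8% of all 32851 windows. Median G+C content was 65% in the members' windows, 61% in those of tested genes and 52.7% in all. Members that fell against ADSCs included windows with 4 matches (P4ha2) and with 0 (Vegfa). Sequence outside the windows, enhancers included, was not searched, so 0 matches does not mean that a gene lacks the core. ACGTG also lies inside CACGTG, the E-box read by other factors such as MYC, which was in the windows of Pfkm, Ldha, Slc16a1, Hif1a and Bnip3. A match is a stretch of letters and was not tested for binding.

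Against ADSCs the members split. Of the 37 in in vitro iSEPs, 6 rose and 11 fell, so 45.9% were called, against 53.8% of all tested genes (32.1% higher, 21.7% lower). The in vivo cells had 7 that rose and 9 that fell, or 43.2%, against 47.6% of all tested genes (27.6% higher, 20% lower). Keratinocytes had 5 that rose and 12 that fell, or 45.9%, against 53.5% of all tested genes (32.8% higher, 20.7% lower). Each of these shares was below that of all tested genes. The members' median difference was -0.197, 0.135 and -0.28 in that order, where all tested genes had 0.148, 0.136 and 0.184. Because the median over all tested genes lay above 0 in each comparison, each library was also scaled to a common median. The split then was 4 higher and 15 lower for in vitro iSEPs, 6 and 9 for in vivo iSEPs, and 5 and 18 for keratinocytes. With that scaling 51.4%, 40.5% and 62.2% of members were called, against 51.1%, 45.9% and 49.5% of all tested genes (24.2%, 22.1% and 23.1% higher, 26.9%, 23.8% and 26.3% lower). Only the in vivo share then still lay below that of all tested genes. Values for the 3 groups are given below in that order. The ADSC libraries are shared by the 3 comparisons.

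Of the glucose transporter genes, Slc2a1 rose in all 3 epithelial groups. It (chromosome 4, 119108745 to 119137329) was at 65.2, 70.9 and 58.5 FPKM in ADSCs, while the lowest of the other 9 libraries had 145. Keratinocytes had 405, 275 and 263 FPKM. The log2 difference from ADSCs was 1.72, 2.43 and 2.24 (limma adjusted p = 0.0014, 0.000141 and 0.000227). It held in every alternative run. Slc2a3 (GLUT3, a high-affinity glucose transporter) was at 1.59 ± 0.0245 FPKM in ADSCs and fell to 0.0597 ± 0.042 in keratinocytes (adjusted p = 0.0121), a call lost without mouse 1 (adjusted p = 0.0759) or mouse 3 (0.0536). It ranged from 0.161 to 2.38 FPKM in in vitro and from 0.172 to 1.61 in in vivo iSEPs. The latter were not called (adjusted p = 0.128), but were without the library of mouse 2 (0.0263). Per length, Slc2a1 exceeded Slc2a3 36.2-fold to 44.7-fold in ADSC libraries. No ratio is given for keratinocytes, where Slc2a3 rested on as few as 2 reads.

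Among the enzymes of upper glycolysis both hexokinase genes fell. Hk2 (chromosome 6, 82725027 to 82774454) was at 15.0, 22.1 and 22.8 FPKM in ADSCs and at 3.82, 5.05 and 6.04 in keratinocytes (log2 -1.81, adjusted p = 0.000174). It fell in in vivo iSEPs (log2 -1.60, adjusted p = 0.000475) and in in vitro iSEPs (log2 -0.81, adjusted p = 0.0243). The last call was lost without any of 4 libraries, the ADSCs of mouse 2 or 3 and the in vitro iSEPs of mouse 2 or 3 (adjusted p 0.0715 to 0.085), and without mouse 2 (0.202) or mouse 3 (0.205). Hk1, the broadly expressed hexokinase, was at 39.2 ± 1.3 FPKM in ADSCs and at 22.8 ± 6.88, 23.1 ± 9.42 and 22.02 ± 0.29 in the others. Its adjusted p values were 0.0235, 0.0245 and 0.0231, and each call was lost in 6 or 7 of 16 alternatives (highest adjusted p = 0.0901, 0.175 and 0.147).

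Pfkm, the muscle-type phosphofructokinase, fell in all 3 groups from 13.1 ± 2.07 FPKM to 6.4 ± 1.84, 7.54 ± 1.18 and 5.02 ± 0.458 (adjusted p = 0.00139, 0.00837 and 0.000246). The in vivo call was lost without mouse 1 (adjusted p = 0.0542) or mouse 2 (0.0622). The liver-type Pfkl and platelet-type Pfkp were not called in any comparison, although Pfkp was higher in keratinocytes when only their 6 libraries were fitted (adjusted p = 0.00826). Pfkl was the highest of the 3 per length in every library. Aldoc (brain-type aldolase) rose in each group, from 2.0, 1.9 and 0.47 FPKM in ADSCs to 8.06, 6.17 and 7.36 in keratinocytes (log2 1.80, adjusted p = 0.00153). In vitro iSEPs had 5.86, 5.83 and 2.74 FPKM (log2 1.26, adjusted p = 0.0125) and in vivo iSEPs 7.67, 5.67 and 2.8 (log2 1.37, adjusted p = 0.00904). These iSEP calls were lost without mouse 2 (adjusted p = 0.1 and 0.0785), the first also without the ADSCs of mouse 3 (0.0552) and the second also without mouse 1 (0.0563). Aldoa still exceeded Aldoc at least 51.9-fold per length in every library. Gpi1, Aldoa and Tpi1, which encode steps with a single main enzyme here, were not called in any of the 6 comparisons, with exceptions under other settings given below.

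Of the genes for the enzymes that set fructose 2,6-bisphosphate, a strong activator of phosphofructokinase, Pfkfb4 (chromosome 9, 108991902 to 109032225) fell everywhere. It had 3.58, 4.32 and 5.79 FPKM in ADSCs, 1.48, 0.969 and 1.02 in in vitro iSEPs, 1.06, 0.602 and 0.656 in in vivo iSEPs and 1.85, 1.15 and 1.28 in keratinocytes. Each ADSC value was above all 9 others. The log2 differences were -1.35, -1.64 and -1.19, with adjusted p of 0.000104, 2.67e-05 and 0.000272 (limma), and held in every alternative that could give a value. Pfkfb3 was not called, at 7.38 to 13.2 FPKM on average. It was lower in keratinocytes with median scaling (adjusted p = 0.025) or without the ADSCs of mouse 3 (0.0368).

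In lower glycolysis few genes moved. Eno1 fell in in vitro iSEPs to 62.1 ± 9.43 from 122 ± 17.7 FPKM (log2 -0.97, adjusted p = 0.000686). It was not called in in vivo iSEPs (adjusted p = 0.244) or keratinocytes (0.0552), but it was in keratinocytes without the library of mouse 3 (0.0119) or the ADSCs of mouse 1 (0.0318). Eno2 fell from 2.41 ± 1.44 FPKM to 0.608 ± 0.167, 0.169 ± 0.186 and 0.152 ± 0.0958 (adjusted p = 0.00562, 0.000545 and 0.000454), and the first call was lost without mouse 2 (adjusted p = 0.0519). Since Eno2 entered through the ADSC libraries alone, its values with no filter are also given (adjusted p = 0.00833, 0.00101 and 0.000847). Pgk1 and Pgam1, with the reservation above, and Pkm passed no threshold. Pkm was at 461 ± 13.3 FPKM in ADSCs and 380 to 524 on average elsewhere. Under median scaling Pkm (adjusted p = 0.0403) and Aldoa (0.0452) became lower in in vitro iSEPs than in ADSCs, and Eno1 (0.0156), Gpi1 (0.0143) and Aldoa (0.0288) in keratinocytes. Without the in vivo iSEPs of mouse 1 Aldoa was higher there than in keratinocytes (0.0422).

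Of the 5 genes of lactate and pyruvate fate 1, 2 and 0 rose against ADSCs and none fell. That is 20%, 40% and 0% called, each below the 53.8%, 47.6% and 53.5% of all tested genes. Ldhb was at 11.3, 7.5 and 7.21 FPKM in ADSCs, below every in vivo value, and rose 7.75-fold in in vivo iSEPs (log2 2.84, SE 0.45, adjusted p = 0.000342, limma), in every alternative run. In in vitro iSEPs it had a log2 difference of 0.95 from ADSCs and was not called (adjusted p = 0.0977), with the library of mouse 2 apart as above. Without the in vitro library of mouse 3 it was called (0.0191). Ldha, the muscle-type subunit and a hypoxia target, was at 540 ± 75.6 FPKM in ADSCs and 401 ± 21.4, 577 ± 153 and 517 ± 51.1 in the others, and was not called in any comparison. With median scaling it was lower in in vitro iSEPs than in ADSCs (adjusted p = 0.0286), and without the in vivo library of mouse 3 it was higher in in vivo than in in vitro iSEPs (0.0438). Ldhb therefore made up 1.19% to 2.34% of the summed Ldha and Ldhb FPKM in ADSC libraries and 1.49% to 2.22% in keratinocytes. That share was 8.88%, 9.35% and 14.5% in in vivo iSEPs and 2.97%, 10.0% and 2.25% in in vitro iSEPs.

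Slc16a3 rose in in vivo iSEPs from 60.4, 83.2 and 64.3 FPKM in ADSCs (log2 0.69, adjusted p = 0.0451). That call was lost in 10 of 16 alternatives, median scaling included (adjusted p = 0.108), and without the in vivo iSEPs of mouse 2 (0.154) or mouse 3 (0.0725) or the ADSCs of mouse 1 (0.131) or mouse 3 (0.114). Slc16a1 rose in in vitro iSEPs from 16.5, 12.8 and 8.92 FPKM (log2 1.01, adjusted p = 0.0365). It was lost in 9 of 16, with median scaling at adjusted p = 0.0624, and among single libraries without the ADSCs of mouse 2 (0.0757) or mouse 3 (0.131), and without in vitro mouse 1 (0.112) or mouse 2 (0.0717). The in vivo group was called without its library of mouse 3 (0.0236). Slc16a1 stood at 0.34 to 0.619 of Slc16a3 per length in in vitro iSEP libraries and at 0.0651 to 0.273 in in vivo iSEP libraries. Pdk1, the gene of a mitochondrial kinase that inhibits pyruvate dehydrogenase, was not called (14.3 ± 5.99 FPKM in ADSCs, 23.3 ± 6.03 in in vivo iSEPs, adjusted p = 0.0924). With the mouse as a block it was (adjusted p = 0.0239), and also without the in vivo library of mouse 3 (0.0405).

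Of the oxygen sensing genes, Egln3 set both kinds of iSEP apart. It encodes PHD3, a hypoxia-inducible prolyl hydroxylase, and lies on chromosome 12 from 54178981 to 54203874. ADSCs had 3.36, 4.75 and 1.96 FPKM and keratinocytes 1.93, 2.41 and 2.96. In vitro iSEPs had 47.3, 26.4 and 21.4, and in vivo iSEPs 22.04, 59.2 and 8.29. All 6 iSEP values were above all 6 others. Against ADSCs it rose by log2 2.88 in in vitro iSEPs (SE 0.55, adjusted p = 0.00109) and by 2.48 in in vivo iSEPs (adjusted p = 0.00327). Keratinocytes and ADSCs had a log2 difference of -0.30 (adjusted p = 0.669). Egln1 exceeded Egln3 5.97-fold or more per length in every ADSC and keratinocyte library, while Egln3 exceeded Egln1 in all 3 in vitro iSEP libraries and in the in vivo iSEPs of mouse 2.

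Hif1a was at 190 ± 44.4 FPKM in ADSCs and fell to 104 ± 8.11 in keratinocytes (log2 -0.83, adjusted p = 0.0126). That call was lost without mouse 1 (adjusted p = 0.138), mouse 2 (0.104) or the ADSCs of mouse 1 (0.0506). In both kinds of iSEP Hif1a was not called against ADSCs (adjusted p = 0.735 and 0.565). Epas1 had 2.2 ± 0.0321 FPKM in ADSCs and 0.558 ± 0.0878 in keratinocytes and was not called (adjusted p = 0.133), although it was when only these 6 libraries were fitted (0.000109). Hif1a was at least 22.6-fold above Epas1 per length in every library. Egln1 was between 19.8 and 26.7 FPKM on average in the 4 groups and was not called. With median scaling it was lower than in ADSCs in in vitro iSEPs (adjusted p = 0.0158) and keratinocytes (0.0386), as it was without the ADSCs of mouse 3 (0.0118 and 0.0396).

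In in vivo against in vitro iSEPs all 10 hypoxia targets had a positive difference (median 0.354), where 44.7% of all tested genes did. Only 1 of them, P4ha1, was called, and groups did not overlap in 1. Against ADSCs the 10 did not move as one. There 2, 2 and 3 rose and 5, 4 and 5 fell. That is 70%, 60% and 80% called, against 53.8%, 47.6% and 53.5% of all tested genes. Those that fell furthest encode collagen hydroxylases. P4ha1 was at 115, 121 and 110 FPKM in ADSCs and 13.5, 13.2 and 14.4 in keratinocytes, and every ADSC value was above the 22.1 that is the highest elsewhere. Its log2 differences were -3.53, -2.64 and -2.98 (adjusted p = 6.92e-08, 7.65e-07 and 2.44e-07, limma). P4ha2, the gene of a second alpha subunit (chromosome 11, 54100924 to 54131667), was at 153, 179 and 143 FPKM in ADSCs. It was at 17.7, 36.4 and 20.3 in in vitro iSEPs, 18.8, 36.6 and 43.8 in in vivo iSEPs and 19.5, 15.5 and 17.0 in keratinocytes (log2 -2.69, -2.30 and -3.12). All 6 stromal markers, collagen genes among them, fell along with them in each group, and their part in the result was not tested.

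Vegfa, the gene of the main blood vessel growth factor (chromosome 17, 46016994 to 46032377), was at 72.4, 61.0 and 57.2 FPKM in ADSCs. In vitro iSEPs had 14.4, 12.5 and 7.23, in vivo iSEPs 7.82, 24.0 and 20.1, and keratinocytes 13.1, 12.6 and 14.002. No epithelial library reached an ADSC library, and the log2 differences were -2.43, -1.94 and -2.17 (adjusted p = 0.000127, 0.000716 and 0.000284, limma). Ero1l, a protein folding oxidase of the endoplasmic reticulum, fell from 32.2 ± 8.41 FPKM to 13.1 ± 1.48, 16.3 ± 4.68 and 18.6 ± 3.04 (adjusted p = 0.000999, 0.00523 and 0.0174). Without mouse 2 its calls in in vivo iSEPs (adjusted p = 0.115) and keratinocytes (0.176) were lost. They were also lost without mouse 1 (0.0694 and 0.118), and the keratinocyte call without the ADSCs of mouse 1 (0.0528) or mouse 2 (0.0767) or the keratinocytes of mouse 1 (0.0688).

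Bnip3, which encodes a mitochondrial receptor for mitophagy, was at 32.7, 35.9 and 14.3 FPKM in ADSCs, where mouse 3 was low. It fell in keratinocytes to 8.54, 4.51 and 4.87 (log2 -1.98, adjusted p = 0.00266, and 0.064 without mouse 2). In in vitro iSEPs (17.0, 10.9 and 5.72 FPKM) the groups overlapped. The log2 difference there was -1.24 (adjusted p = 0.0313), and it was lost in 7 of 16 alternatives, among them those without the ADSCs of mouse 1 (0.103) or mouse 2 (0.115) and without in vitro mouse 2 (0.0596) or mouse 3 (0.128). In in vivo iSEPs it had 13.3, 24.2 and 11.2 FPKM (adjusted p = 0.208).

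Other targets rose. Ndrg1, a gene induced by hypoxia and by differentiation (chromosome 15, 66929318 to 66969641), was at 17.3, 15.7 and 11.04 FPKM in ADSCs. In vitro iSEPs had 82.4, 63.7 and 85.4, in vivo iSEPs 65.0, 84.3 and 158, and keratinocytes 108, 73.5 and 70.3. All 9 epithelial values were above the ADSC values, and the log2 differences of 2.33, 2.64 and 2.43 (adjusted p = 6.15e-05, 2.59e-05 and 4.37e-05) held in every alternative run. Its exons overlap those of annotated antisense transcripts, as do those of Slc2a1, Hif1a, Car9 and Bnip3. Exons of other genes on the opposite strand overlap Pfkp (748 bases, Pitrm1), Gpi1 (356 bases), Ankrd37 (186 and 57 bases), Tpi1 (34), Aldoa (25) and Pfkm (18), and exons on the same strand overlap Pkm (334 bases) and Hif1a (148). Some reads of these genes may not be assigned with certainty, those on opposite strands only if strand was not marked.

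Ddit4, which encodes the mTOR inhibitor REDD1, was at 57.5, 35.5 and 28.2 FPKM in ADSCs and 109, 87.0 and 99.4 in keratinocytes (log2 1.32, adjusted p = 0.00238). In vivo iSEPs had 83.6, 77.1 and 87.1 (log2 1.08, adjusted p = 0.00891), a call lost without mouse 2 (0.0926) or mouse 3 (0.103). In vitro iSEPs had 41.6, 83.2 and 82.5 and overlapped with ADSCs (log2 0.76, adjusted p = 0.0426). That call was lost in 11 of 16 alternatives, with the mouse as a block (adjusted p = 0.0694), with median scaling (0.0872), and without the ADSCs of mouse 2 (0.113) or mouse 3 (0.163) and without in vitro mouse 2 (0.143) or mouse 3 (0.145). Car9, a membrane carbonic anhydrase that ranks among the best known hypoxia markers, stayed under 0.42 FPKM in every ADSC and iSEP library. In keratinocytes it had 1.01, 1.6 and 2.2 FPKM, above all others (log2 1.00 against ADSCs, adjusted p = 0.001, and 0.00105 with no filter, since it entered through the keratinocyte libraries alone). Adm (adrenomedullin) and Ankrd37 were not called in any comparison and had group means of 36.5 to 68.3 and 1.32 to 2.2 FPKM. Adm was higher in in vivo iSEPs than in ADSCs (adjusted p = 0.0173) and keratinocytes (0.0153) without the in vivo library of mouse 1, and Ankrd37 was lower in keratinocytes than in ADSCs with median scaling (0.00944).

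**Figure D3:**
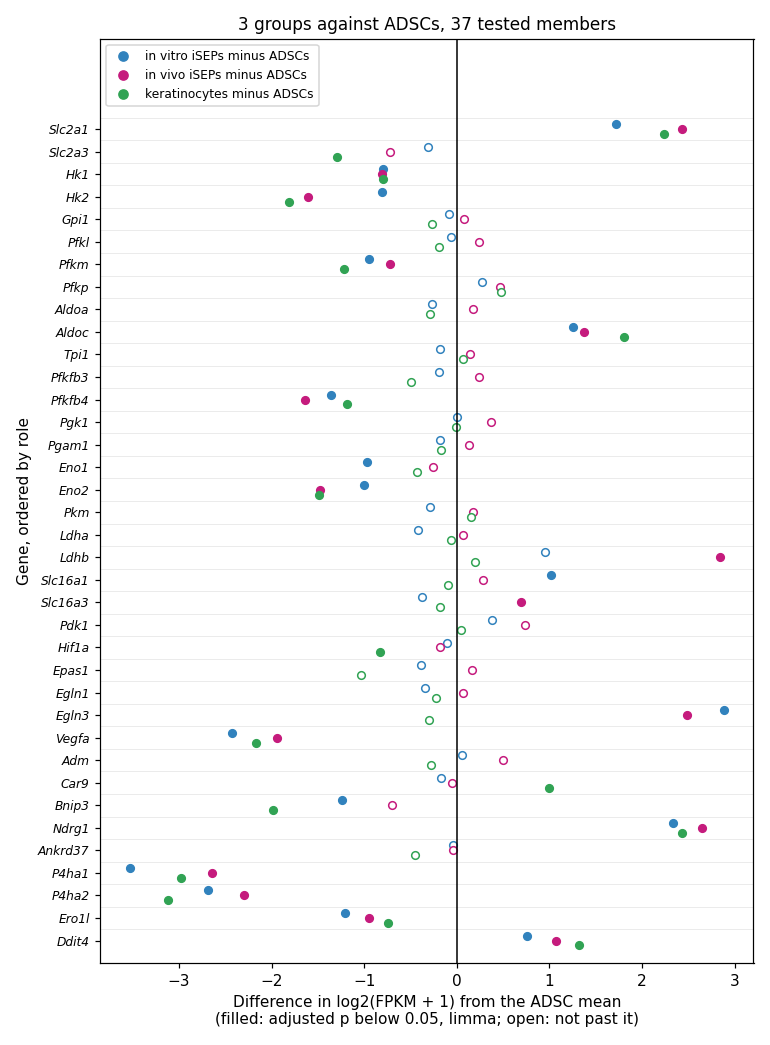
Difference in log2(FPKM + 1) from ADSCs for the 37 tested members in in vitro iSEPs (blue), in vivo iSEPs (magenta) and keratinocytes (green), with filled points at adjusted p below 0.05. Slc2a1 and Ndrg1 lie to the right in all 3 groups, P4ha1, P4ha2, Vegfa and Pfkfb4 to the left in all 3, Egln3 to the right in both kinds of iSEP and Ldhb furthest right in in vivo iSEPs.

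Set against keratinocytes, a skin epithelium in the same medium, few members differed. For in vitro iSEPs 2 of 37 were higher and 1 was lower, or 8.11%, against 11.3% of all tested genes (5.22% higher, 6.12% lower). For in vivo iSEPs the counts were also 2 and 1, against 7.48% of all tested genes (3.41% higher, 4.08% lower). The members' median was 0.008 and 0.337, where all tested genes had -0.017 and -0.053. Egln3 was 13-fold higher in in vitro iSEPs (log2 3.18, adjusted p = 0.00537) and 12.3-fold higher in in vivo iSEPs (log2 2.78, adjusted p = 0.0121). The first call was lost without mouse 1 (adjusted p = 0.0851). The second was lost without mouse 1 (0.0819), mouse 2 (0.233) or the keratinocytes of mouse 2 (0.0512) and when only these 6 libraries were fitted (0.0847).

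Ldhb was 6.75-fold higher in in vivo iSEPs than in keratinocytes, which had 10.99, 10.2 and 8.71 FPKM (log2 2.64, SE 0.45, adjusted p = 0.00607). This held in every alternative run (highest adjusted p = 0.0463). In in vitro iSEPs it was not called (adjusted p = 0.307). Car9 was lower in in vitro iSEPs (0.06, 0.309 and 0.062 FPKM, log2 -1.17, adjusted p = 0.00382) and in in vivo iSEPs (0.238, 0.102 and 0.387, log2 -1.05, adjusted p = 0.00764). It is the only member called lower in either comparison and entered through the keratinocyte libraries alone. With no filter its adjusted p was 0.005 and 0.00908. Without mouse 2 these calls were lost (adjusted p = 0.0817 and 0.295), and the first also without mouse 3 (0.0556).

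Hk2 was higher in in vitro iSEPs than in keratinocytes (log2 1.00, adjusted p = 0.037), which was lost in 9 of 16 alternatives. Among them were those without the in vitro iSEPs of mouse 1 (adjusted p = 0.106) or mouse 3 (0.077) or the keratinocytes of mouse 1 (0.123), mouse 2 (0.103) or mouse 3 (0.0625). With the mouse as a block, Hif1a was also higher in in vitro iSEPs (log2 0.73, adjusted p = 0.0414, and 0.0746 without the block), and Bnip3 in in vivo iSEPs (log2 1.28, adjusted p = 0.0419, and 0.103 without it). Leaving out 1 library brought further members past the threshold. Without the in vivo library of mouse 1, Pfkfb3 (adjusted p = 0.0165), P4ha2 (0.0154) and Slc16a3 (0.036) were higher in in vivo iSEPs than in keratinocytes, and without that of mouse 3, Slc16a1 (0.0442) and Hif1a (0.0129). Without the in vitro library of mouse 2, Slc2a3 was higher (0.0228) and P4ha1 lower (0.0363) in in vitro iSEPs.

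**Figure D4:**
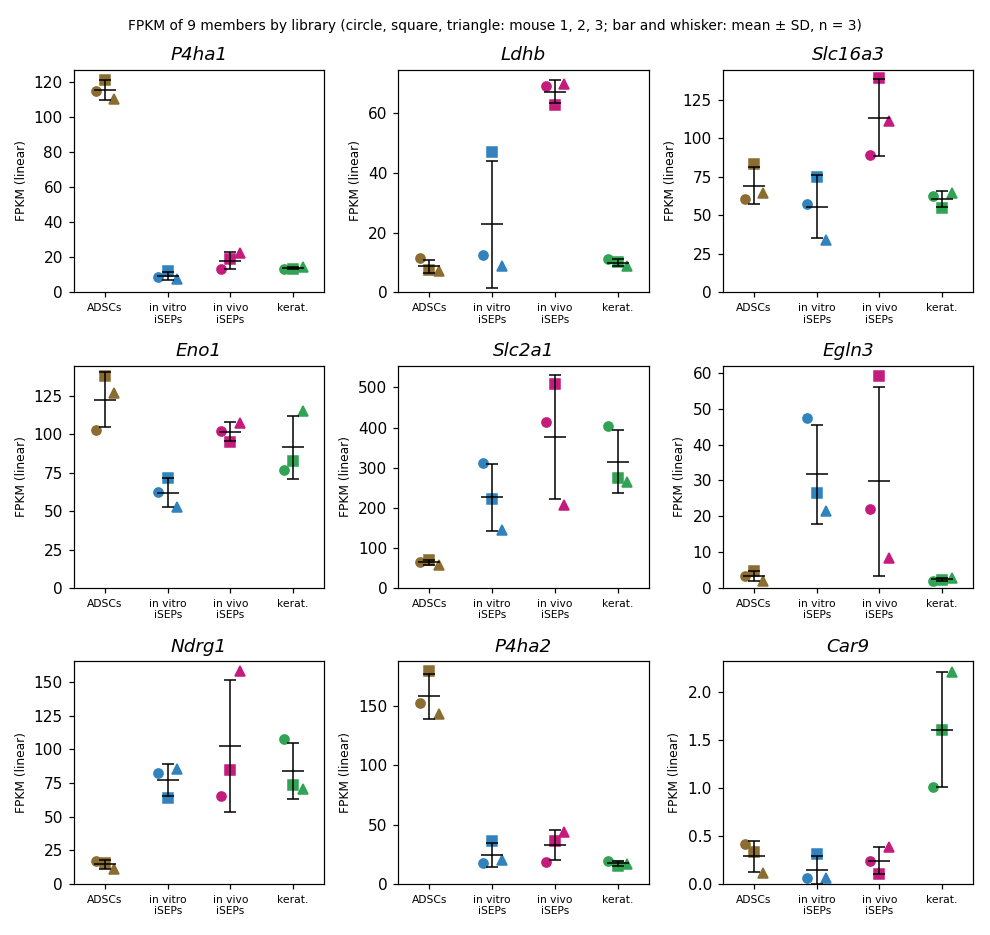
FPKM on linear axes of 9 members, 1 point a library, by group. Mice 1, 2 and 3 are drawn as circles, squares and triangles, and the line with its whisker is the mean ± SD (n = 3). Ldhb is at 62.8 FPKM or more in all 3 in vivo iSEP libraries and in 1 in vitro iSEP library at 47.1, Egln3 is above 8 FPKM in the 6 iSEP libraries alone, and Car9 reaches 1 FPKM in the keratinocyte libraries alone.

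Neighbouring pathways were read from 7 further lists of 146 genes, of which 130 passed the filter, Gfpt2 and Slc2a6 through the ADSC libraries alone. Over the 130, 54.6%, 47.7% and 40.8% were called against ADSCs, where 53.8%, 47.6% and 53.5% of all tested genes were. In in vivo against in vitro iSEPs none of the 130 was called by limma. At an unadjusted p below 0.05 there were 18 of the 130, where 14.9% of all tested genes were. Of 30 other hypoxia targets 10, 10 and 10 rose against ADSCs and 11, 10 and 10 fell (70%, 66.7% and 66.7% called). The collagen cross-linking enzyme genes Lox and Loxl2 led the falls, with Lox at 1090 ± 28.7 FPKM in ADSCs against 2.0 ± 0.317 in keratinocytes and Loxl2 at 218 ± 51.9 against 0.0783 ± 0.015. Loxl2 was higher in in vivo iSEPs (16.0 ± 13.9) than in keratinocytes (adjusted p = 0.0114). Stc2, a secreted glycoprotein gene, was lower in both kinds of iSEP than in keratinocytes (5.28 ± 2.57 FPKM, adjusted p = 0.00246 and 0.00236).

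Of 21 other glucose and pyruvate genes 7, 8 and 6 rose against ADSCs and 4, 2 and 3 fell. That is 52.4%, 47.6% and 42.9% called, where 53.8%, 47.6% and 53.5% of all tested genes were. Slc2a12 rose from 0.21 ± 0.133 FPKM in ADSCs to 9.84 ± 5.76, 16.5 ± 11.97 and 4.06 ± 0.509. Slc2a4, the gene of the insulin-responsive transporter GLUT4, rose in all 3 groups, from 0.0577 ± 0.0581 FPKM in ADSCs to 3.85 ± 1.94, 9.79 ± 3.1 and 3.46 ± 0.202. Gapdhs, the gene of the sperm form of the Gapdh enzyme, was listed at 0 in the 3 ADSC libraries and at 13.1, 12.1 and 9.12 FPKM in in vitro and 11.4, 17.6 and 2.06 in in vivo iSEPs. Keratinocytes had 0.069 to 0.115. It was higher in both kinds of iSEP than in keratinocytes (adjusted p = 0.00213 and 0.00489). Gapdhs passed the filter through iSEP libraries alone, which favoured these calls.

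Of 24 nuclear genes for subunits of the respiratory chain 10, 8 and 4 rose against ADSCs and none fell. That is 41.7%, 33.3% and 16.7% called, each below the 53.8%, 47.6% and 53.5% of all tested genes. Of 18 genes of the tricarboxylic acid cycle 5, 5 and 2 rose and 0, 1 and 0 fell (27.8%, 33.3% and 11.1%, also below). Uqcrc1, of complex III, was at 165 ± 7.88, 169 ± 25.6 and 136 ± 8.56 FPKM against 63.2 ± 8.32 in ADSCs (adjusted p = 8.06e-06, 7.62e-06 and 4.29e-05). Of 12 genes of the ATF4 stress response 6, 4 and 6 fell and 1, 0 and 0 rose. The shares of 58.3%, 33.3% and 50% lay above that of all tested genes in in vitro iSEPs alone. Trib3, a pseudokinase gene of that response, fell from 47.0 ± 8.25 FPKM to 3.42 ± 2.05, 4.78 ± 2.45 and 10.3 ± 6.24. Ddit4, also known as a target of ATF4, was called in the opposite direction above.

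In the pentose phosphate and serine branches 7, 7 and 5 of 15 rose against ADSCs and 5, 4 and 3 fell. That is 80%, 73.3% and 53.3% called, where 53.8%, 47.6% and 53.5% of all tested genes were, so the keratinocyte share is near the background. Gfpt2, of the hexosamine branch, fell from 17.2 ± 2.0 FPKM to 0.247 ± 0.0846, 0.0433 ± 0.0376 and 0.0537 ± 0.0251, a fall that its entry through the ADSC libraries alone favours. G6pdx, which encodes the first enzyme of the pentose phosphate pathway, was at 112 ± 18.8 FPKM in in vivo iSEPs against 52.3 ± 3.76 in keratinocytes (adjusted p = 0.00885). Of 10 other oxygen sensing genes 2, 1 and 2 rose against ADSCs and 3, 2 and 2 fell (50%, 30% and 40%, each below the share of all tested genes). Vhl, whose product marks hypoxia-inducible factors for destruction, fell from 14.2 ± 3.05 FPKM to 7.15 ± 0.772, 8.5 ± 0.486 and 6.63 ± 0.6 (adjusted p = 0.000602, 0.0045 and 0.000294).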

How the data were processed

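RNA was sequenced in 12 cultures (4 groups of 3). The authors deposited 1 table of FPKM values for 24537 genes with 3 decimals, made per the file headers with HOMER (exons of mm10 RNAs, 1 entry per gene, + strand setting). FastQC 0.11.5 and STAR 2.5.1b are named per the submitters' processing notes. No source used here says whether the libraries mark strand. The table's 3 columns that match no sample were not used.

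Depth was read from low values, which were whole reads in 100% of cases (tolerance 0.15 reads). From the FPKM, log2(FPKM + 1) was computed and fitted with limma 3.58.1 in R 4.3.3 (4 group means, mean-dependent variance trend, two-sided, Benjamini-Hochberg over 12364 genes). The fit was also run on simulated data in which each gene had the same spread in all 4 groups. The real spreads are unequal, so that run does not show how the fit handles them. Members and lists were chosen with earlier results of these data known. Members given by library are P4ha1, the next 7 by size of difference between the kinds of iSEP, and up to 5 with the largest called rise and fall in each other comparison. From each further list up to 2 called genes a comparison could be named, and not all are.

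Mouse numbers pair libraries only if a number is the same animal in each group, as the titles read. Deviations of same-numbered libraries correlated across genes at -0.178 to 0.21. The block and the other alternatives are in the closing section.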

Additional observations from a re-analysis of the deposited data

How the results depend on the processing

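Alternatives were a pseudocount of 0.1, no filter, a filter at 5 FPKM, median scaling, quantile normalization, the mouse number as a replicate block, a fit of only the 2 groups compared, and leaving out each mouse or library. No called member changed sign in any of them. The calls of 0 of 1, 10 of 17, 10 of 16, 12 of 17, 0 of 3 and 1 of 3 members held in every one that could give a value, in the order in vivo against in vitro iSEPs, then against ADSCs (in vitro, in vivo, keratinocytes), then against keratinocytes (in vitro, in vivo). Members below the filter at 5 FPKM, Car9 among them, have no value there.

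In vivo against in vitro iSEPs had 0 members called higher with no filter, with median scaling, with the block and with only the 2 groups, in place of 1. Over all genes, 128 were called there with the replicate block and 1 with only the 2 groups, in place of 201. In vitro iSEPs against keratinocytes had 1 member higher with no filter and 5 with only the 2 groups in place of 2, and 0 lower at 5 FPKM and 3 with quantile normalization in place of 1. In vivo iSEPs against keratinocytes had 0 lower at 5 FPKM in place of 1, and with only the 2 groups 1 higher in place of 2 and 424 genes in place of 925. Besides the calls given with the members, the block changed no other call of a member. The cause was not tested, except that fewer genes or samples enter by construction in the filtered and reduced fits.

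Leaving out a mouse or a library gave, in the same order of comparisons, 0 to 3, 3 to 6, 4 to 8, 5 to 5, 0 to 3 and 1 to 7 members called higher. Members called lower numbered 0 to 0, 7 to 10, 6 to 9, 8 to 14, 0 to 2 and 0 to 1, and genes called 2 to 360, 4295 to 6338, 3486 to 6281, 3920 to 6322, 193 to 1180 and 35 to 1676. The lowest count of genes was that without mouse 2 in each comparison. With 3 libraries a group, most differences of the size seen between the kinds of iSEP did not pass the threshold, which does not show that they are absent.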
